A study of Homo sapiens with 12 samples.

Results

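The genes described are those of the receptors for glutamate, GABA, glycine and acetylcholine. They were chosen by symbol: all ionotropic glutamate receptor subunits (GRIA, GRIK, GRIN and GRID genes), the metabotropic glutamate receptors (GRM), the subunits of GABA-A and GABA-B receptors (GABR and GABBR), of glycine receptors (GLRA and GLRB) and of nicotinic acetylcholine receptors (CHRN), and the muscarinic acetylcholine receptors (CHRM). They make up 73 of the 59087 features in the count table. Of these, 15 were at 0 in all 12 libraries and 36 passed the filter on low counts and were tested; the other 22 had at most 16 counts in any library.

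The cells were SH-SY5Y, a long-established human neuroblastoma line of sympathetic origin. One genotype was wild type, and the other carried a knockout of FMR1, the gene of the RNA-binding protein FMRP that is lost in fragile X syndrome. The knockout came as 3 lines made independently of each other, and all cells were kept for 2 weeks in SILAC medium, whose arginine and lysine carried either heavy or ordinary (light) isotopes. There were 3 wild-type libraries in heavy medium and 3 in light medium. Each knockout line gave 1 library in heavy and 1 in light medium. The labels do not say whether the wild-type libraries came from separate cultures, so p-values measure the spread between these libraries, which may be technical. An effect of FMR1 loss and an effect of deriving a line cannot be told apart.

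Ionotropic receptors are ion channels built from several subunits, so the mix of subunit transcripts limits which channels a cell can assemble. Nicotinic, GABA-A and glycine receptors are pentamers of 1 protein family; AMPA, kainate and NMDA receptors are tetramers of another. Muscarinic, GABA-B and metabotropic glutamate receptors instead act through G proteins. Sympathetic neurons receive their main input through nicotinic receptors that hold the products of CHRNA3 and CHRNB4, and SH-SY5Y cells are widely used to study nicotinic and muscarinic signalling. FMRP is best known in this field from the mGluR theory of fragile X syndrome, which concerns signalling by group I metabotropic glutamate receptors.

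Libraries held 25935152 to 40257027 counts, and levels are given as CPM, the counts of a gene scaled to a common library size. In wild type FMR1 had 37.7 ± 2.17 CPM (SD, n = 6). The knockout libraries had 22.4 and 11.4 CPM in line 1 (heavy, then light), 12.8 and 11.5 CPM in line 2 and 7.19 and 9.06 CPM in line 3. The library labelled knockout line 1, heavy, thus kept 59.3% of the wild-type FMR1 level and stood apart from the other 5, so results that rest on it are given with and without it. All 14 sympathoadrenal marker genes checked were tested, with a summed level of 10170 to 11130 CPM in wild type against 8205 to 10600 CPM in knockout; TH was at most 1.04 CPM. The summed level of 10 mesenchymal markers was 461 to 489 CPM in wild type against 316 to 428 CPM in knockout (PRRX1 at 0). Of the 8 mesenchymal markers tested over both media, 3 were called higher and 2 lower; TWIST1, which made up most of the sum, had means of 335 CPM in wild type against 251.5 CPM in knockout, and VIM had 22.0 against 49.7 CPM. The summed level of 6 fibroblast markers was 86.8 to 91.6 and 60.5 to 76.5 CPM (DCN at 0). PDGFRB made up most of that sum, with means of 83.6 CPM in wild type against 65.1 CPM in knockout. The other fibroblast markers had means of at most 2.26 CPM. The summed level of 7 Schwann and glial markers was 2.03 to 2.84 and 2.01 to 6.03 CPM (SOX10 and GFAP at 0). Muscle markers summed to at most 0.612 CPM. The part of these marker shifts in the receptor results was not tested, and in bulk RNA a smaller number of cells of 1 kind and less RNA per cell cannot be told apart.

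Receptor transcripts of SH-SY5Y cells were few in kind. Of the 73 genes, 30 had a mean of at least 1 CPM in wild type or knockout and 21 a mean of at least 10 CPM. Compared between genes per kilobase of exon, CHRNA3 was highest in wild type at 38.4 ± 1.34 CPM per kilobase (SD, n = 6), followed by CHRNB2 at 24.9 ± 1.92, GRM8 at 16.7 ± 1.10, GRIK5 at 14.5 ± 0.703 and CHRNB4 at 10.7 ± 0.489. CHRNA5 was at 9.01 ± 0.715 CPM per kilobase. Nicotinic subunits summed to 438 CPM, GABA-A subunits to 135 CPM, metabotropic glutamate receptors to 121 CPM and kainate subunits to 109 CPM in wild type.

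**Figure D1:**
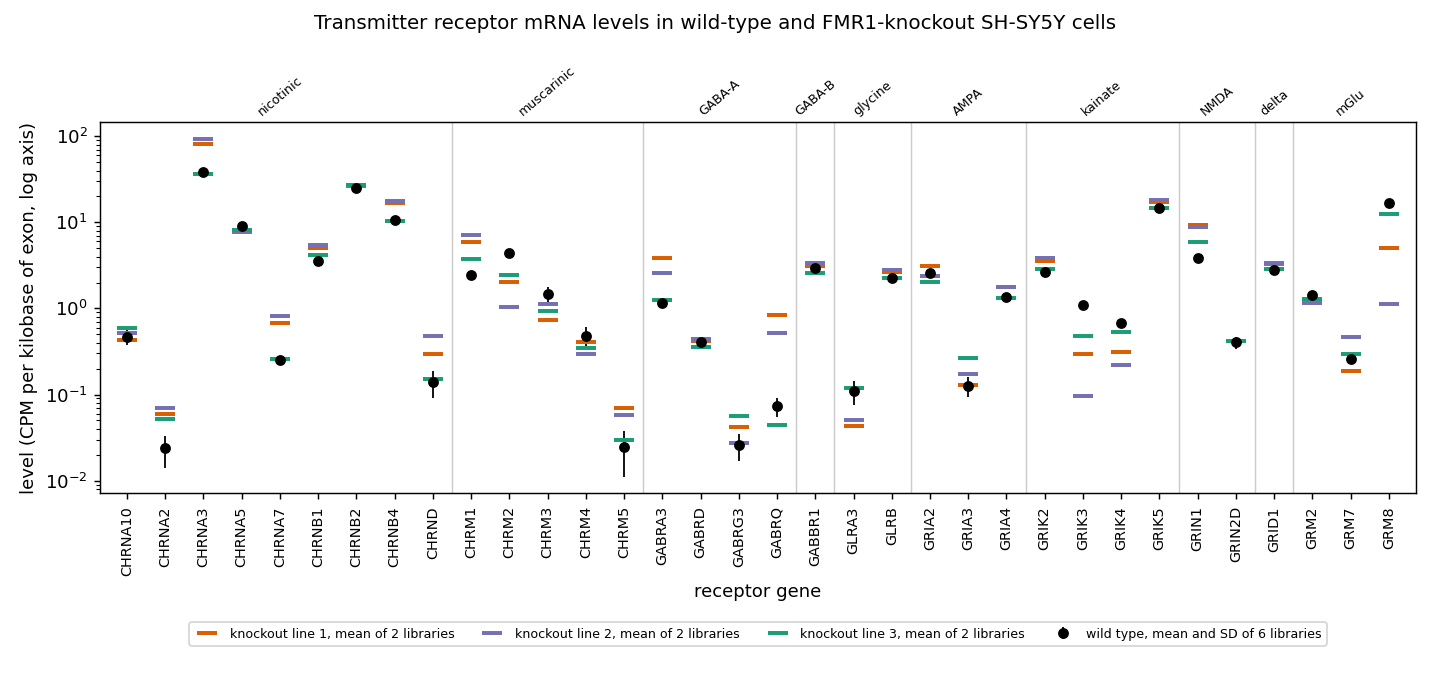
Level of the tested receptor genes that are named here, in CPM per kilobase of exon, on a log axis, ordered by receptor class. Black points are the mean and SD of 6 wild-type libraries and coloured bars the mean of the 2 libraries of each knockout line; the orange and purple bars (lines 1 and 2) leave the wild-type points at CHRNA3, GABRQ and GRM8 while the green bars (line 3) stay closer.

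Knockout was first set against wild type over both media, to ask which receptor genes differ between the genotypes. Of the 36 tested receptor genes, 17 passed (edgeR adjusted p under 0.05), 12 higher and 5 lower, which is 47.2%; of all 16704 genes tested 24.8% passed, 15.0% higher and 9.78% lower. The receptor genes' median log2 fold change was 0.19, against 0.00291 over all genes tested. The genes that rose were the nicotinic CHRNA2, CHRNA3, CHRNA7, CHRNB1, CHRNB4 and CHRND, the muscarinic CHRM1, the GABA-A subunits GABRA3 and GABRQ, the NMDA subunit GRIN1 and the kainate subunits GRIK2 and GRIK5. The genes that fell were CHRNA5, CHRM2, CHRM3, GRIK3 and GRIK4. The 6 knockout libraries stand for 3 lines, so the counts were also summed per line and refitted: 1 receptor gene, GRIN1 (adjusted p = 0.0485), passed in it, where 1.53% of all genes did. Without the heavy library of line 1, 12 receptor genes passed, where 22.4% of all genes did: CHRNA3, CHRNA5, CHRNB4, CHRM3, GABRQ and GRIK5 no longer did (adjusted p 0.0528 to 0.0657), and GRM2 did (log2 -0.27, adjusted p = 0.04005).

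Each line was then set against wild type. In line 1, 18 of the 36 receptor genes passed, 14 higher and 4 lower, where 28.2% of all genes passed (15.4% higher and 12.8% lower). In line 2, 23 passed, 17 higher and 6 lower, where 43.0% of all genes passed (22.9% higher and 20.1% lower). In line 3, 4 passed, with GRIN1, CHRM1 and GRIA3 higher and CHRM2 lower, where 5.0% of all genes passed (3.27% higher and 1.73% lower). With its heavy library left out, line 1 (then 1 library) had 21 receptor genes past the threshold, where 27.2% of all genes passed: CHRNA2, CHRM3 and CHRM5 dropped out, and GRID1, GRIK3, GRM2, GRM7 and GRM8 were among those that came in. Line 3 then had 6, with GRIK3 and GRM8 added, both lower, where 7.52% of all genes passed. These 3 comparisons share the wild-type libraries, and each concerns a line of 2 libraries. The difference among the 3 lines, tested on the 6 knockout libraries, passed for 10 of 35 receptor genes against 12.7% of all genes: GABRQ, CHRNB4, CHRNA3, CHRNA7, GABRA3, CHRM1, CHRND, GRIN1, GRIK4 and GLRA3. With the heavy or the light library of line 1 left out, this test passed for 19 receptor genes, where 21.8% and 21.5% of all genes passed. It passed for 5 without the heavy library of line 2, where 1.38% of all genes did.

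**Figure D2:**
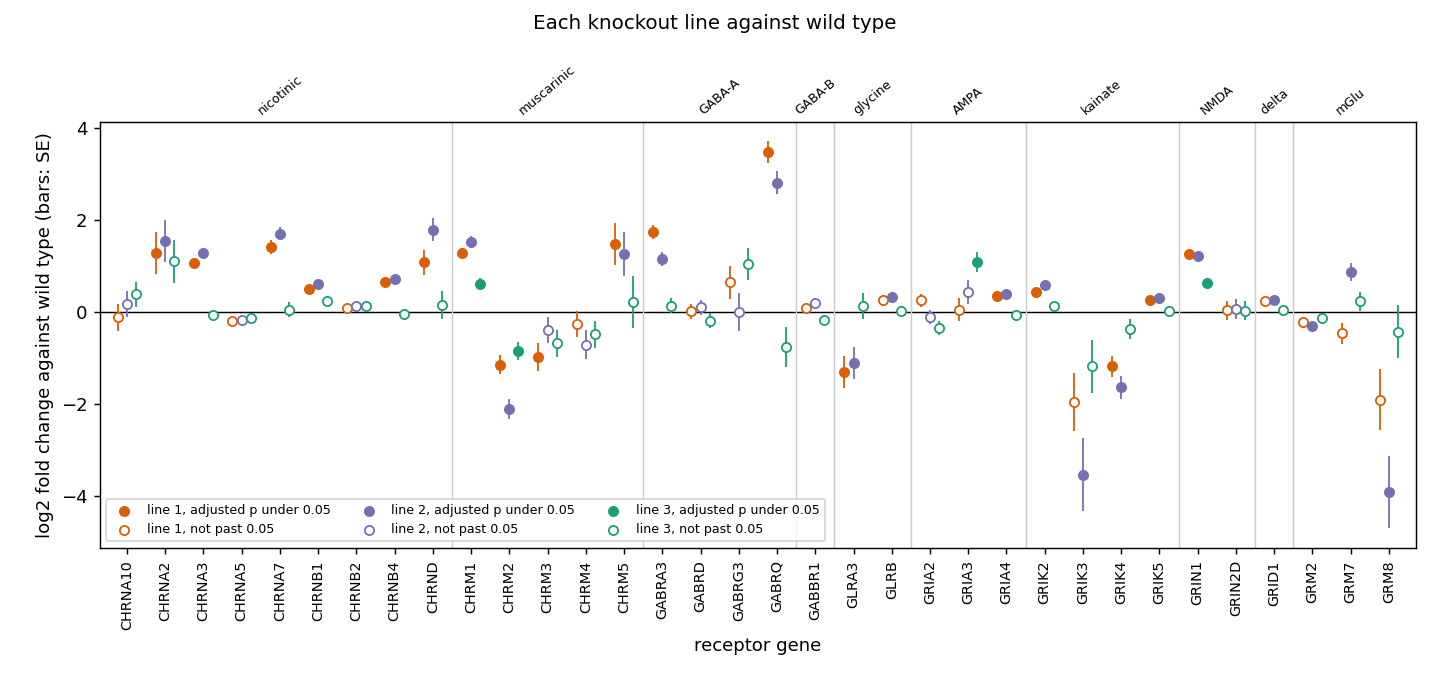
Log2 fold change of the same receptor genes in knockout lines 1, 2 and 3 against the 6 wild-type libraries, with SE as bars; filled points passed an adjusted p of 0.05 and open points did not. Lines 1 and 2 lie well above 0 at GABRQ (3.48 and 2.82) where line 3 does not, and GRIN1, CHRM1 and CHRM2 carry filled points in all 3 lines.

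Every knockout library lay above every wild-type library for 5 receptor genes (CHRNA2, CHRNB1, CHRM1, GRIK2 and GRIN1) and below every wild-type library for 3 (CHRM2, GRIK3 and GRM8). Over all genes tested, 10.5% had groups that did not overlap in this way. Light medium alone, 3 libraries against 3, gave 2 receptor genes past the threshold, GRIN1 (adjusted p = 0.0496) and CHRM1 (adjusted p = 0.0334), where 1.44% of all genes passed. Heavy medium alone gave 0 receptor genes, where 0.112% of all genes passed.

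The nicotinic genes were the largest tested class, and 7 of 9 passed over both media, where 24.8% of all genes did. All 4 tested kainate genes passed too. In line 3 and on counts summed per line 0 nicotinic genes passed, where 5.0% and 1.53% of all genes did. The pair CHRNA3 and CHRNB4, which encode the α3 and β4 subunits of the ganglionic receptor, lies beside CHRNA5, the gene of the accessory α5 subunit, on chromosome 15. CHRNA5 (ENSG00000169684.13) spans 78565520 to 78595269 on the plus strand, CHRNA3 (ENSG00000080644.15) 78593052 to 78621295 on the minus strand and CHRNB4 (ENSG00000117971.11) 78624119 to 78727754 on the minus strand (GENCODE release 29, GRCh38). CHRNA3 and CHRNB4 rose in lines 1 and 2 and did not pass in line 3, and CHRNA5 did not rise in any line.

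CHRNA3 was at 176 to 191 CPM in wild type (median 181). It was at 327 and 440.4 CPM in line 1 (heavy, then light), at 438 and 458 CPM in line 2 and at 181 and 166 CPM in line 3. The 4 libraries of lines 1 and 2 lay above all wild-type libraries, and those of line 3 at or below the wild-type median. Its log2 fold change was 1.06 in line 1 (SE 0.0676, edgeR adjusted p = 4.6e-09), 1.29 in line 2 (SE 0.0669, adjusted p = 1.3e-10) and -0.07 in line 3 (95% interval -0.22 to 0.07, adjusted p = 0.635). Over both media it was 0.87 (adjusted p = 0.0391). Without the heavy library of line 1, line 1 stood at log2 1.25 (adjusted p = 3.6e-12) and the fit over both media at 0.86 (adjusted p = 0.0654).

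CHRNB4 was at 49.7 to 55.9 CPM in wild type (median 54.2). Line 1 had 77.6 and 91.05 CPM, line 2 had 83.3 and 91.5 CPM and line 3 had 52.1 and 51.7 CPM. Line 3 lay within the wild-type range and the other lines above it. On the log2 scale the change was 0.66 in line 1 (adjusted p = 1.5e-07), 0.71 in line 2 (adjusted p = 2.1e-08) and -0.04 in line 3 (95% interval -0.16 to 0.08, adjusted p = 0.805).

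CHRNA5 was at 30.6 to 37.0 CPM in wild type (median 31.55). Line 1 had 29.2 and 27.4 CPM, line 2 had 27.6 and 29.9 CPM and line 3 had 31.1 and 28.1 CPM, with 1 of these 6 inside the wild-type range. Over both media its log2 fold change was -0.18 (adjusted p = 0.0448), and it passed in no line alone; with the heavy library of line 1 left out the adjusted p was 0.0564. The ratio of CHRNA3 to CHRNA5, per kilobase, was 3.91 to 4.55 in wild type, 8.50 and 12.2 in line 1 and 12.1 and 11.6 in line 2. Line 3 had ratios of 4.42 and 4.49. The genes overlap at their 3′ ends (78593052 to 78595269) on opposite strands, and whether the counting used strand is not stated, so some reads of either gene may have been counted for the other. The antisense gene AC027228.2, which lies within CHRNA5 (78589123 to 78591276) and is named after its values were seen, was at 9.41 CPM in wild type, 19.0 and 29.8 CPM in line 1, 29.8 and 29.7 CPM in line 2 and 9.87 and 10.4 CPM in line 3.

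CHRNA7 (ENSG00000175344.17; chromosome 15, 31923438 to 32173018, plus strand) encodes the α7 subunit, which forms calcium-permeable homopentamers. It was at 4.68 to 6.19 CPM in wild type (median 5.07), at 10.7 and 17.5 CPM in line 1, at 16.8 and 17.6 CPM in line 2 and at 5.52 and 5.435 CPM in line 3. Again the 4 libraries of lines 1 and 2 were above, and those of line 3 within, the wild-type range. CHRNA7 had a log2 fold change of 1.41 in line 1 (SE 0.146, adjusted p = 2.3e-06), 1.70 in line 2 (SE 0.144, adjusted p = 8.3e-08) and 0.05 in line 3 (95% interval -0.28 to 0.38, adjusted p = 0.91). CHRFAM7A, a partial copy of CHRNA7 on the same chromosome, went from 0.811 to 1.65 CPM (adjusted p = 0.0238 over both media); how reads that match both were treated is not given, so the CHRNA7 level is uncertain to that extent. Its merged exon length (20978 bases) includes long transcript models, which lowers its level per kilobase.

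The 300-base promoter windows of these 3 genes are shown because their transcripts rose in the same lines. They run from 250 bases before to 50 bases after a RefSeq transcription start (GRCh38.p14), 5′ to 3′ on the gene's strand, and are the first window listed for each gene; 53 of the 73 receptor genes had a window. Capitals mark GC boxes (GGGCGG, or CCGCCC on the other strand, overlapping matches counted) and the E-box CAGCTG, which reads the same on both strands. The windows are chr15:78620947-78621246 (minus strand) for CHRNA3, chr15:78641161-78641460 (minus strand) for CHRNB4, well inside the longer GENCODE model, and chr15:32030233-32030532 (plus strand) for CHRNA7.
CHRNA3: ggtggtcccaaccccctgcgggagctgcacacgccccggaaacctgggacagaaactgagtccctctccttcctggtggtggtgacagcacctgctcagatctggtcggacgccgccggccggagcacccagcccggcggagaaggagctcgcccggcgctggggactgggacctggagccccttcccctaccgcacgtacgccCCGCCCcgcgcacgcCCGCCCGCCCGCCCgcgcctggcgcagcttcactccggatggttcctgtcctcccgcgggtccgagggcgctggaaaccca
CHRNB4: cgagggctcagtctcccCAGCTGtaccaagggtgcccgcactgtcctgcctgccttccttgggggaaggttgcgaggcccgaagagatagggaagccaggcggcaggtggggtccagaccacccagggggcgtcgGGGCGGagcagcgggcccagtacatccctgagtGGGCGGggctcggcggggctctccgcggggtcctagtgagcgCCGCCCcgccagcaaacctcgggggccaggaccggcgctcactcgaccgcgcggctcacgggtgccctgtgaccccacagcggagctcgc
CHRNA7: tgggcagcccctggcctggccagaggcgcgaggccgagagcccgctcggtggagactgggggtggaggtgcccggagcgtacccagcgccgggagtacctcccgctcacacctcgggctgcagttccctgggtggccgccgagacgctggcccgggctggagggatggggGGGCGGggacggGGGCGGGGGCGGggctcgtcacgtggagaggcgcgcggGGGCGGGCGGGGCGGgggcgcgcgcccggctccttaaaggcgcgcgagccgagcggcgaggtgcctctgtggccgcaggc
CHRNA3 holds 4 GC boxes, CHRNB4 holds 3 GC boxes and 1 E-box and CHRNA7 holds 6 GC boxes, and their GC contents are 72.7%, 72.7% and 79.0%. Of all 35116 windows listed, 44.95% hold a GC box and 17.95% this E-box. Of the 27 tested receptor genes with a window, 19 hold a GC box and 6 the E-box. The first shares cover every window of a gene and also genes that were not tested. The receptor counts use only the first window of tested genes, so they cannot be compared directly.

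Subunits of the muscle receptor were also among the nicotinic calls. CHRNB1, the β1 subunit, was at 13.5 to 17.1 CPM in wild type (median 15.7), at 20.6 and 23.0 CPM in line 1, 22.0 and 24.7 CPM in line 2 and 17.2 and 18.9 CPM in line 3. All 6 knockout libraries lay above all wild-type libraries, and the log2 fold change over both media was 0.45 (adjusted p = 0.0024), with 0.50 (adjusted p = 7.2e-05), 0.60 (adjusted p = 4.6e-06) and 0.23 (adjusted p = 0.104) in lines 1, 2 and 3. CHRND, the δ subunit, was low throughout: 0.195 to 0.626 CPM in wild type (median 0.457), 0.727 and 1.10 CPM in line 1, 1.21 and 1.78 CPM in line 2 and 0.402 and 0.559 CPM in line 3. It rose by 1.08 in line 1 and 1.79 in line 2 on the log2 scale (adjusted p = 0.0056 and 1.5e-05), and line 3 lay within the wild-type range. The neuronal α2 subunit CHRNA2 was near the detection limit at 0.0645 to 0.195 CPM in wild type against 0.201 to 0.367 CPM in knockout, with no overlap between the groups (log2 1.31, adjusted p = 0.0103 over both media; 1.29, 1.54 and 1.10 in lines 1, 2 and 3, adjusted p = 0.0402, 0.00953 and 0.215).

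Other nicotinic genes did not pass. CHRNB2, the β2 subunit and the second most abundant receptor transcript per kilobase in wild type, had 147 ± 11.3 CPM in wild type against 158 ± 6.81 CPM in knockout (SD, n = 6 each; log2 0.11, 95% interval 0.02 to 0.20, adjusted p = 0.102). The per-kilobase ratio of CHRNB4 to CHRNB2 was 0.382 to 0.454 in wild type, 0.619 to 0.670 in lines 1 and 2 and 0.378 and 0.395 in line 3. CHRNA10 had 1.26 ± 0.2495 CPM in wild type against 1.39 ± 0.476 CPM in knockout, and shares part of its span with NUP98 on the same strand. CHRNG and CHRNB3 were at 0 in all libraries, and CHRNA1, CHRNA4, CHRNA6, CHRNA9 and CHRNE had at most 13 counts.

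**Figure D3:**
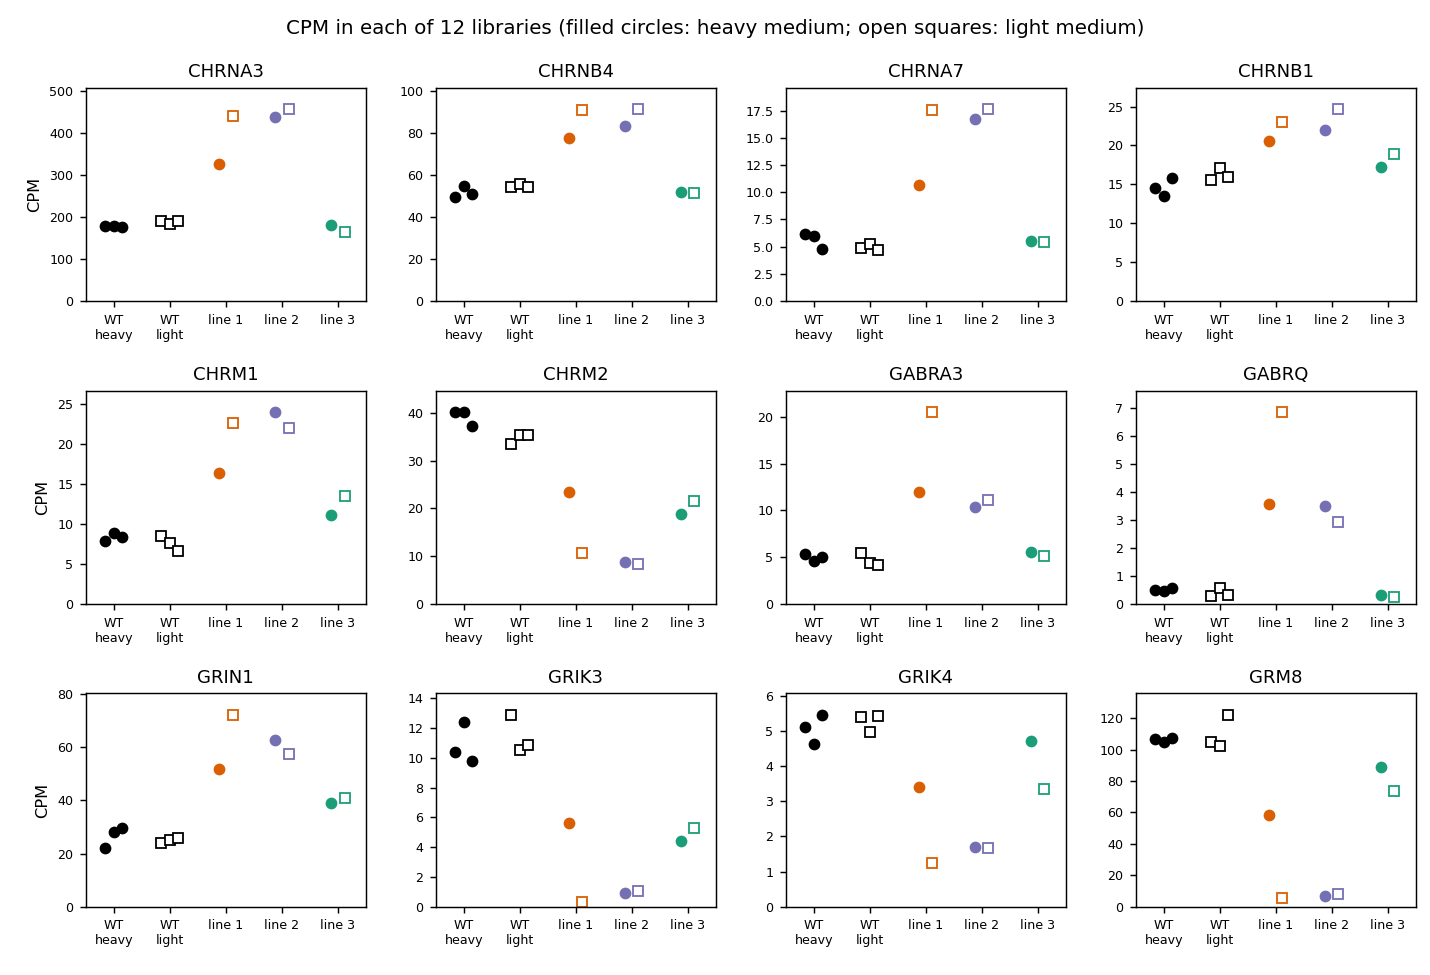
CPM of 12 receptor genes in each of the 12 libraries; black marks are wild type, orange, purple and green marks are knockout lines 1, 2 and 3, filled circles are heavy and open squares light medium. For CHRNA3, CHRNB4, CHRNA7, GABRA3 and GABRQ line 3 sits with wild type, while for GRIN1, CHRM1 and CHRM2 all 6 knockout libraries lie apart from it, and the orange circle (line 1, heavy) lies between wild type and the orange square.

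The muscarinic receptor genes moved in both directions. CHRM1 (ENSG00000168539.3; chromosome 11, 62908679 to 62921807, minus strand), whose product couples to Gq and phospholipase C, rose in all 3 lines. It was at 6.62 to 8.90 CPM in wild type (median 8.13), at 16.3 and 22.5 CPM in line 1, at 23.95 and 21.9 CPM in line 2 and at 11.04 and 13.4 CPM in line 3. No knockout library overlapped the wild-type range, and line 3 lay between wild type and the other lines. The log2 fold change was 1.28 in line 1 (SE 0.119, adjusted p = 3.9e-07), 1.53 in line 2 (SE 0.118, adjusted p = 1.5e-08) and 0.62 in line 3 (SE 0.126, adjusted p = 0.0066), and the lines differed (adjusted p = 0.00586). On counts summed per line it was 1.20 with an adjusted p of 0.0546.

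CHRM2 (ENSG00000181072.11; chromosome 7, 136868669 to 137020255, plus strand), whose product couples to Gi and Go, moved the other way. It was at 33.5 to 40.2 CPM in wild type (median 36.3), at 23.4 and 10.7 CPM in line 1, at 8.69 and 8.46 CPM in line 2 and at 18.8 and 21.5 CPM in line 3. All knockout libraries were below all wild-type libraries, with line 2 lowest. The log2 fold change was -1.15 in line 1 (adjusted p = 0.0021), -2.11 in line 2 (adjusted p = 3.9e-05) and -0.86 in line 3 (adjusted p = 0.0363). Line 3 passed in 3 of 12 fits that left out 1 library (adjusted p up to 0.391); with the heavy library of line 1 left out its value was -0.87 (adjusted p = 4.9e-07). Line 1 without that library stood at -1.74 (adjusted p = 1.2e-09).

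The promoter windows of CHRM1 and CHRM2 are shown because these genes changed in opposite directions in every line. They are chr11:62921314-62921613 (minus strand) and chr7:136868402-136868701 (plus strand, the first of 3 windows listed), with the same capitals as above.
CHRM1: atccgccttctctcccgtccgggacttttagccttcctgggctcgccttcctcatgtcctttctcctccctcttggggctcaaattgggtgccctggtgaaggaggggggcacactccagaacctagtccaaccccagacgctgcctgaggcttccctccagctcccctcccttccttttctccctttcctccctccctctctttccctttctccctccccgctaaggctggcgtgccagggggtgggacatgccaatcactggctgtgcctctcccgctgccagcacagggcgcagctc
CHRM2: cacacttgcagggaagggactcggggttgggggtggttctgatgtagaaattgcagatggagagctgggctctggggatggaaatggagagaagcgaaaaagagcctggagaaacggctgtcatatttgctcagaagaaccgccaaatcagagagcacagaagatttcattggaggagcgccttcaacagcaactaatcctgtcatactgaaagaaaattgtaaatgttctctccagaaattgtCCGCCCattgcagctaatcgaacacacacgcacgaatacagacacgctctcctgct
CHRM1 holds 0 GC boxes and CHRM2 holds 1, neither holds the E-box, and their GC contents are 62.7% and 48.7%.

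Among the other muscarinic genes, CHRM3, also coupled to Gq, was at 13.9 to 22.2 CPM in wild type (median 17.7), at 10.2 and 7.89 CPM in line 1, at 13.4 and 13.7 CPM in line 2 and at 15.0 and 7.43 CPM in line 3. It fell over both media (log2 -0.67, adjusted p = 0.0299) and in line 1 (-0.98, adjusted p = 0.0386), with 1 library of line 3 inside the wild-type range. Without the heavy library of line 1 neither passed (adjusted p = 0.0528 and 0.0742). CHRM5 was near the detection limit, at 0.0677 to 0.296 CPM in wild type, 0.349 and 0.453 CPM in line 1, 0.367 and 0.309 CPM in line 2 and 0.234 and 0.107 CPM in line 3. It passed in line 1 (log2 1.48, adjusted p = 0.019) and line 2 (1.26, adjusted p = 0.0427), in line 1 not without its heavy library (adjusted p = 0.0523), and it overlaps AVEN on the opposite strand. CHRM4 (0.731 ± 0.177 CPM in wild type against 0.531 ± 0.1197 CPM in knockout, SD, n = 6 each) did not pass.

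GABA-A receptors open a chloride pore, and their α, β and further subunits set the sensitivity to GABA and to drugs. The 2 genes that passed lie near each other on the long arm of chromosome X: GABRA3, the α3 subunit (ENSG00000011677.12; 152166234 to 152451358, minus strand), and GABRQ, the θ subunit (ENSG00000268089.2; 152638183 to 152657534, plus strand). GABRA3 was at 4.15 to 5.42 CPM in wild type (median 4.82), at 12.0 and 20.5 CPM in line 1, at 10.4 and 11.1 CPM in line 2 and at 5.52 and 5.115 CPM in line 3. Lines 1 and 2 lay above all wild-type libraries, and line 3 lay at the top of the wild-type range with 1 library just past it. The log2 fold change was 1.74 in line 1 (SE 0.146, adjusted p = 1.8e-07), 1.16 in line 2 (SE 0.155, adjusted p = 1.3e-05) and 0.14 in line 3 (95% interval -0.20 to 0.47, adjusted p = 0.734).

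GABRQ had the largest fold change of any tested receptor gene over both media. It was at 0.296 to 0.569 CPM in wild type (9 to 23 counts), at 3.58 and 6.85 CPM in line 1, at 3.498 and 2.93 CPM in line 2 and at 0.301 and 0.2398 CPM in line 3. Mean levels were 11.5-fold higher in line 1 and 7.12-fold higher in line 2 than in wild type, and line 3 was within or below the wild-type range. Log2 fold changes were 3.48 in line 1 (SE 0.238, adjusted p = 5.5e-09), 2.82 in line 2 (SE 0.258, adjusted p = 8.9e-08) and -0.77 in line 3 (95% interval -1.63 to 0.08, adjusted p = 0.36). The lines differed (adjusted p = 0.000395, the smallest among receptor genes).

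GABRD, the δ subunit of extrasynaptic receptors, had 2.28 ± 0.254 CPM in wild type against 2.25 ± 0.217 CPM in knockout (SD, n = 6 each) and did not pass, nor did GABRG3 (0.327 ± 0.117 and 0.525 ± 0.194 CPM). Other GABA-A subunit genes were absent or nearly so: GABRA2, GABRA4, GABRA6, GABRB2, GABRG1 and GABRE were at 0 in all libraries, and GABRA5, GABRB1 and GABRP had at most 9 counts. Of the rho subunits, GABRR1 and GABRR3 were at 0 and GABRR2 had at most 8 counts. GABBR1, the GABA-binding subunit of GABA-B receptors, had 24.7 ± 2.25 CPM in wild type against 25.5 ± 3.80 CPM in knockout (log2 0.04, 95% interval -0.14 to 0.22). GABBR2, the partner that GABA-B receptors need at the cell surface, had 1 count in 1 library.

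Glycine receptors pair α subunits with the β subunit GLRB. GLRB was at 7.13 to 9.32 CPM in wild type (median 7.501), at 8.96 and 9.59 CPM in line 1, at 10.2 and 9.27 CPM in line 2 and at 8.23 and 7.57 CPM in line 3. It passed in line 2 (log2 0.32, adjusted p = 0.0264), where 1 of the 2 libraries lay inside the wild-type range. GLRA3, the α3 subunit, was at 0.751 to 1.68 CPM in wild type (median 1.00), at 0.5235 and 0.311 CPM in line 1, at 0.395 and 0.579 CPM in line 2 and at 1.10 and 1.17 CPM in line 3. It fell in line 1 (log2 -1.31, adjusted p = 0.0076) and line 2 (-1.12, adjusted p = 0.0135), all 4 libraries lying below the wild-type range and line 3 inside it. GLRA1, GLRA2 and GLRA4 had at most 3 counts.

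AMPA receptors carry fast excitation. GRIA4 was at 13.6 to 14.1 CPM in wild type (median 13.85), at 15.4 and 20.1 CPM in line 1, at 18.4 and 17.6 CPM in line 2 and at 13.8 and 12.8 CPM in line 3. It rose in line 1 (log2 0.36, adjusted p = 0.00601) and line 2 (0.38, adjusted p = 0.0023), with those 4 libraries above the wild-type range. GRIA3 was at 0.643 to 1.218 CPM in wild type (median 0.75), at 0.931 and 0.764 CPM in line 1, at 1.10 and 1.12 CPM in line 2 and at 1.57 and 1.865 CPM in line 3. It rose in line 3 (log2 1.09, SE 0.226, adjusted p = 0.0069), whose libraries alone lay above the wild-type range. GRIA2, whose edited subunit keeps AMPA receptors from passing calcium, had 23.1 ± 2.80 CPM in wild type against 22.3 ± 5.24 CPM in knockout (log2 -0.05, 95% interval -0.33 to 0.23), and GRIA1 had at most 6 counts.

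All 4 kainate subunits with counts passed over both media, in opposite directions. GRIK2, which can form channels by itself, was at 18.1 to 21.1 CPM in wild type (median 20.1), at 26 and 27.8 CPM in line 1, at 32.6 and 26.6 CPM in line 2 and at 21.9 and 21.6 CPM in line 3. All 6 knockout libraries lay above the wild-type range, those of line 3 just so, and the log2 fold changes were 0.44, 0.58 and 0.13 in lines 1, 2 and 3 (adjusted p = 0.000447, 1.4e-05 and 0.423). GRIK5, a high-affinity subunit that needs a partner such as GRIK2, was at 66.0 to 75.2 CPM in wild type (median 73.9), at 85.2 and 88.45 CPM in line 1, at 89.4 and 91.7 CPM in line 2 and at 73.95 and 74.5 CPM in line 3. It rose by 0.25 in line 1 and 0.31 in line 2 on the log2 scale (adjusted p = 0.0021 and 0.000167), and line 3 lay inside the wild-type range. The per-kilobase ratio of GRIK5 to GRIK2 was 4.82 to 6.09 in wild type and 4.15 to 5.22 in knockout.

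GRIK3 (ENSG00000163873.9; chromosome 1, 36795527 to 37034129, minus strand) was at 9.80 to 12.9 CPM in wild type (median 10.7), at 5.64 and 0.3395 CPM in line 1, at 0.903 and 1.04 CPM in line 2 and at 4.38 and 5.30 CPM in line 3. All knockout libraries were below all wild-type libraries, and the library labelled line 1, heavy, was the highest of them. The log2 fold change over both media was -1.94 (adjusted p = 0.0333), with -1.97 in line 1 (adjusted p = 0.0569), -3.55 in line 2 (adjusted p = 0.0085) and -1.19 in line 3 (adjusted p = 0.336). Without the heavy library of line 1 the values were -5.07, -3.52 and -1.20, with adjusted p = 2.3e-11, 9.8e-13 and 1.5e-06. GRIK4, the other high-affinity subunit, was at 4.61 to 5.45 CPM in wild type (median 5.25), at 3.40 and 1.25 CPM in line 1, at 1.69 and 1.66 CPM in line 2 and at 4.72 and 3.36 CPM in line 3, where 1 library lay inside the wild-type range. Its log2 fold changes were -1.19, -1.64 and -0.37 (adjusted p = 0.00107, 6.5e-05 and 0.365). GRIK1 was at 0 in all libraries.

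NMDA receptors need the GRIN1 subunit together with a GRIN2 or GRIN3 subunit. GRIN1 (ENSG00000176884.14; chromosome 9, 137138390 to 137168762, plus strand) was at 22.2 to 29.6 CPM in wild type (median 25.4), at 51.7 and 72.2 CPM in line 1, at 62.7 and 57.6 CPM in line 2 and at 39.1 and 40.9 CPM in line 3. All 6 knockout libraries were above all wild-type libraries, with line 3 the nearest. The log2 fold change was 1.26 in line 1 (SE 0.112, adjusted p = 2.2e-06), 1.221 in line 2 (SE 0.113, adjusted p = 1.2e-06) and 0.63 in line 3 (SE 0.117, adjusted p = 0.0059), and the lines differed (adjusted p = 0.0271). Over both media it was 1.07 (SE 0.148, adjusted p = 0.0012) and passed in all 12 fits that left out 1 library. The partners were scarce: GRIN2D had 2.06 ± 0.332 CPM in wild type against 2.12 ± 0.350 CPM in knockout (SD, n = 6 each; log2 0.04, 95% interval -0.25 to 0.33), GRIN2C, GRIN3B and GRIN2B had at most 6 counts, and GRIN2A and GRIN3A were at 0. Per kilobase GRIN1 stood to GRIN2D as 8.02 to 10.99 in wild type, 21.4 and 23.0 in line 1 and 19.3 and 24.0 in line 2. Line 3 had ratios of 12.0 and 17.6.

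The delta subunit GRID1, which acts at synapses mainly by binding to partners across the cleft, was at 15.8 to 18.8 CPM in wild type (median 16.0), at 17.8 and 20.7 CPM in line 1, at 21.0 and 18.5 CPM in line 2 and at 17.4 and 16.5 CPM in line 3. It passed in line 2 (log2 0.27, adjusted p = 0.0218), where 1 of the 2 libraries was above the wild-type range.

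Of the metabotropic glutamate receptors, GRM8 (ENSG00000179603.17; chromosome 7, 126438598 to 127253294, minus strand), a group III receptor that lowers transmitter release through Gi and Go, differed most. It was at 102 to 122 CPM in wild type (median 106), at 58.6 and 5.57 CPM in line 1, at 6.80 and 7.80 CPM in line 2 and at 89.1 and 73.7 CPM in line 3. All knockout libraries were below all wild-type libraries; the light library of line 1 and both of line 2 were far below, and the heavy library of line 1 stood between them and wild type. In line 2 the log2 fold change was -3.92 (SE 0.786, adjusted p = 0.0052). It passed neither in line 1 (-1.91, adjusted p = 0.0697) nor in line 3 (-0.43, adjusted p = 0.763), nor over both media (-1.47, adjusted p = 0.156). Without the heavy library of line 1 it was -4.27 in line 1 (adjusted p = 4.9e-14), -3.90 in line 2 (adjusted p = 4.0e-16) and -0.42 in line 3 (adjusted p = 0.0014).

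The GRM8 promoter window, the first of 4 listed, is shown because no other receptor gene lost as many CPM in line 2 (chr7:127252892-127253191, minus strand, same capitals).
GRM8: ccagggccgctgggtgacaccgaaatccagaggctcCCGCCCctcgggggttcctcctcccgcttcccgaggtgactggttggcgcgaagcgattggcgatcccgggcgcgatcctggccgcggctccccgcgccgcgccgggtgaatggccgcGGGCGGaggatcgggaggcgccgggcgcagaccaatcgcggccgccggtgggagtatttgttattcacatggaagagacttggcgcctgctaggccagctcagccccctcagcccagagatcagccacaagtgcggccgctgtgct
It holds 2 GC boxes and 0 E-boxes, with a GC content of 70.0%.

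The other metabotropic genes moved less. GRM7, also of group III, was at 1.94 to 2.34 CPM in wild type (median 2.15), at 2.12 and 0.99 CPM in line 1, at 4.12 and 3.63 CPM in line 2 and at 2.01 and 2.90 CPM in line 3. It rose in line 2 (log2 0.86, adjusted p = 0.0017), while line 1 without its heavy library was lower (-1.11, adjusted p = 0.0049); the difference among lines did not pass on the 6 knockout libraries (adjusted p = 0.0715). GRM2, of group II, was at 9.96 to 10.5 CPM in wild type (median 10.1), at 9.95 and 7.385 CPM in line 1, at 8.63 and 7.61 CPM in line 2 and at 8.20 and 10.1 CPM in line 3, and fell in line 2 (-0.32, adjusted p = 0.0366). GRM5, of group I, had at most 5 counts. GRM6 was at 0, and GRM3 and GRM4 had at most 15 counts.

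The heavy library of line 1 lay between wild type and the light library of the same line for most of these genes. Among the 14 receptor genes with a mean of at least 1 CPM in wild type or knockout whose level in the light library differed from the wild-type mean by at least 1.5-fold, it had gone a median of 51.2% of the way, with 13 of them between 40% and 80%; GRM7 (0.0209%) was the exception. FMR1 itself had gone 58.3% of the way. The genes were chosen by their level in the light library, which is also the end point of the scale. That choice by itself favours a heavy library that falls short of the end point. The same measure was not taken over all genes or in the other lines, so these percentages only describe 1 library. What sets that library apart was not tested.

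**Figure D4:**
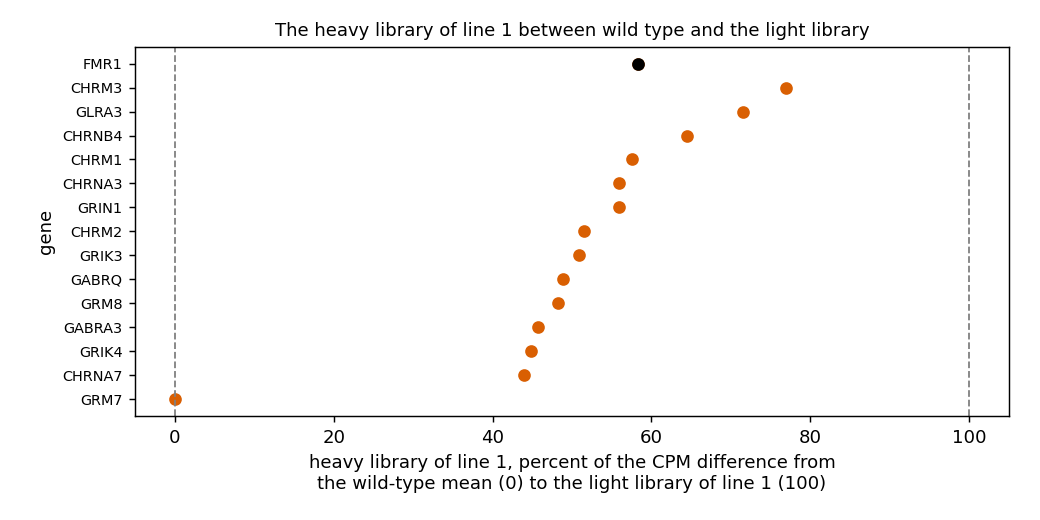
Position of the library labelled knockout line 1, heavy, for 14 receptor genes and FMR1 (black), as a percentage of the CPM difference from the wild-type mean (0) to the light library of line 1 (100). Most genes lie near the middle (median 51.2%), as FMR1 does (58.3%), and GRM7 lies at the wild-type mean.

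Isotope labelling is the second factor of the design, and heavy medium was set against light medium with both genotypes in the fit. In edgeR 0 of 36 receptor genes passed and 0 had an unadjusted p under 0.05; 0% of all genes passed, and 531 of 16704 had an unadjusted p under 0.05. For the interaction of genotype and medium, 0 receptor genes passed and 1 had an unadjusted p under 0.05; 0% of all genes passed, and 149 had an unadjusted p under 0.05.

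Genes that act with these receptors were taken from 10 lists and are given over both media, where 24.8% of all genes passed. Of 11 tested chaperones and accessory proteins of nicotinic receptors, 1 rose and 1 fell: LYNX1, a membrane protein that binds and restrains nicotinic receptors, was at 8.59 ± 1.005 CPM in wild type against 16.0 ± 3.28 CPM in knockout (SD, n = 6 each; log2 0.90, adjusted p = 0.000739), and the calcium sensor VSNL1 from 50.4 ± 5.90 to 11.3 ± 8.87 CPM (-2.21, adjusted p = 0.013). Of 6 tested genes of acetylcholine synthesis, storage and breakdown, 2 rose (PRIMA1, the membrane anchor of acetylcholinesterase, log2 0.64, and the vesicular transporter SLC18A3, 0.41) and the choline transporter SLC44A1 fell (-0.21). LYNX1 passed in line 3 too (adjusted p = 0.0064), and with counts summed per line (adjusted p = 0.0464).

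Of 20 tested genes that cluster or assemble GABA and glycine receptors, 3 rose and 3 fell. KCTD12, an auxiliary subunit of GABA-B receptors, went from 20.1 ± 1.84 to 34.5 ± 4.501 CPM (log2 0.78, adjusted p = 0.000244) and LHFPL4, which anchors GABA-A receptors, from 72.7 ± 3.60 to 94.7 ± 6.79 CPM (0.38, adjusted p = 0.000629); both also passed in line 3 and on summed lines. The auxiliary subunit KCTD16 fell by 1.06 on the log2 scale. Of 8 tested genes of GABA and glycine synthesis and transport, 4 rose and 1 fell, among them the GABA-degrading enzyme ALDH5A1 (0.59), the GABA transporter SLC6A11 (0.52) and the glycine transporter SLC6A9 (1.04), and, lower, the glycine cleavage enzyme GLDC (-0.31). Of 9 tested chloride and bicarbonate transporters, 4 rose and 0 fell, among them SLC4A8, SLC12A4 and SLC4A3, by 0.33, 0.37 and 0.34.

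Among 15 tested auxiliary subunits of ionotropic glutamate receptors 8 rose and 0 fell. They included CACNG4, a TARP that carries AMPA receptors to the membrane (802 ± 31.5 to 932 ± 52.0 CPM, log2 0.22, adjusted p = 0.0048), CNIH3 (0.55), FRRS1L, which takes part in AMPA receptor assembly (11.7 ± 0.775 to 25.6 ± 9.38 CPM, 1.13, adjusted p = 0.0066), and ABHD6 (0.56). Of 26 tested scaffold and trafficking genes 11 rose and 3 fell, with the smallest p for the pentraxin receptor NPTXR (0.56), the scaffolds GRIP2 (0.71) and MPP2 (0.39) and the postsynaptic protein DLGAP3 (0.46). Of 12 tested genes of glutamate synthesis and transport 2 rose and 3 fell, with SLC38A2 (-0.26), GLS2 (1.13), SLC1A2 (0.96) and GLUL (-0.37) having the smallest p.

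Of 25 tested genes of group I metabotropic and Gq-coupled muscarinic signalling 7 rose and 2 fell; the inositol trisphosphate receptor ITPR2 fell (log2 -0.85, adjusted p = 0.000973), and the phospholipase PLCB3 (0.35) and the protein kinase PRKCE (1.16) were among those that rose. Of 20 tested genes of Gi and Go signalling 6 rose and 2 fell. The G protein γ subunit GNG3 had 1.37 ± 0.165 CPM in wild type and means of 20.4, 42.7 and 4.75 CPM in lines 1, 2 and 3 (log2 4.02, adjusted p = 0.0043), and GNG4, GNAZ and GNB5 rose by 0.18, 0.24 and 0.47. On counts summed per line, of all the genes in these lists, 6 rose (LYNX1, KCTD12, LHFPL4, ALDH5A1, NPTXR and GRIP2) and ITPR2 fell. In that fit 272 of all 17726 genes tested passed (1.53%).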

How the data were processed

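Poly(A) RNA of 12 libraries was measured. The deposited values are raw whole-number read counts per gene. Per the submitters' processing notes, the tools were bcl2fastq 2.19.0, STAR 2.7.0f, featureCounts of Subread 1.6.4, and DESeq2 1.22.1 in R 3.5.1, with the genome build GRCh38.p13; per the labels' protocols the library kit was stranded. No source used here gives the annotation, the strand setting of counting or the treatment of multi-matching reads.

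Counts were tested with edgeR 4.0.16 in R 4.3.3: TMM factors (0.981 to 1.0245), filterByExpr over the 4 groups, robust quasi-likelihood F tests, and adjustment by Benjamini and Hochberg over all 16704 genes at 0.05. Every adjusted p is from this test unless another tool is named. The medium was a covariate in each genotype and line comparison, and the 3 line contrasts came from 1 fit of all 12 libraries. CPM are counts over the TMM-scaled sum of tested genes. SEs were derived from the F statistic, and 95% intervals are 1.96 SE either way. Exon lengths and positions came from GENCODE release 29, in which all 73 receptor genes were found. The fits were tested on simulated counts.

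Named with per-library values was every receptor gene that passed over both media or in a line; those with a group mean of at least 1 CPM that passed nowhere are given by their means; in each of the 10 lists, up to 4 called genes with the smallest p were named. Some genes are counted in the totals but not reported here by name. The receptor genes, the lists and the tests were chosen with earlier results of these data known. Alternatives were RLE factors, DESeq2 1.42.0, limma-voom (limma 3.58.1), other filters on low counts, each library or line left out, each medium alone, counts summed per line, and the replicate number as a block. Knockout libraries of the same number come from the same line, per the labels, and their deviations from the group means correlated at 0.132, 0.703 and 0.722; wild-type libraries of the same number did so at 0.1, 0.013 and -0.097.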

Additional observations from a re-analysis of the deposited data

Results flagged for a closer look

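The difference among the 3 knockout lines passed for 10 receptor genes, tested on the 6 knockout libraries with edgeR; lines 1, 2 and 3 are given in that order as mean CPM of 2 libraries each. GABRQ was at 5.21, 3.22 and 0.271 CPM (adjusted p = 0.000395) and GABRA3 at 16.3, 10.8 and 5.32 CPM (adjusted p = 0.00377). CHRNB4 was at 84.3, 87.4 and 51.9 CPM (adjusted p = 0.000606), CHRNA3 at 383.5, 448 and 173 CPM (adjusted p = 0.00101) and CHRNA7 at 14.1, 17.2 and 5.48 CPM (adjusted p = 0.00111). CHRM1 was at 19.4, 22.9 and 12.2 CPM (adjusted p = 0.00586), CHRND at 0.915, 1.495 and 0.481 CPM (adjusted p = 0.0237) and GRIN1 at 62.0, 60.1 and 40 CPM (adjusted p = 0.0271). GRIK4 was at 2.32, 1.68 and 4.04 CPM (adjusted p = 0.0459) and GLRA3 at 0.417, 0.487 and 1.14 CPM (adjusted p = 0.0499). In all 10 of these genes, line 3 was the line whose mean lay nearest to the wild-type mean. GRM8 did not pass (adjusted p = 0.4325), with the 2 libraries of line 1 at 58.6 and 5.57 CPM.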

How the results depend on the processing

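No log2 fold change of a called receptor gene changed direction: of 1164 values under the alternatives, 0 reversed, 951 stayed past the threshold and 213 did not. These alternatives reuse most of the same libraries, for genes already called, so a reversal was unlikely from the start. Over both media, 17 receptor genes passed, where 24.8% of all genes did. With no filter on low counts 9 did, where 3492 of 31396 genes did. Counts summed per line gave 1, heavy medium alone 0 and light medium alone 2, where 1.53%, 0.112% and 1.44% of all genes passed. With line 1, 2 or 3 left out, 8, 6 and 24 receptor genes passed. Of all genes, 2327 of 16782, 1710 of 16816 and 7415 of 16990 then did. Leaving out 1 library gave 8 to 21 receptor genes over both media, 13 to 21 in line 1, 14 to 25 in line 2, 2 to 6 in line 3 and 5 to 19 for the difference among lines; calls over all genes moved with them, from 15.4% to 35.0%, 9.13% to 29.3%, 25.0% to 44.2%, 1.67% to 7.52% and 1.38% to 21.8% in the same order. Without the heavy library of line 1, GRM8 and GRIK3 passed in lines 1 and 3, and with the heavy or the light library of line 1 left out the count in line 3 was 6. The lowest counts came without the heavy library of line 2 (8 over both media, 14 in line 2, 5 among lines), without either the wild-type light library 3 or the line 2 light library (8 each over both media), and without the light library of line 3 (2 in line 3). With no filter, 8 receptor genes passed in line 3, where 1387 of 31396 genes did, and 19 differed among lines, where 3411 of 29024 genes did. Of the 17, GRIK2, CHRM2, GRIN1, CHRM1 and CHRNB1 passed in all 12 fits that left out 1 library, and CHRNA2 in the 11 that tested it (not tested without the heavy library of line 2).

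With the replicate number as a block, 17 receptor genes passed over both media, 0 for medium and 0 for the interaction, as without it, and 17 of the 17 were shared. By the labels, numbers pair the knockout libraries, which share a line. The paired deviations correlated at 0.703 and 0.722 in lines 2 and 3, but at 0.132 in line 1. Numbers did not pair wild type with knockout (correlations -0.16 to -0.019).

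Depth limited the 22 receptor genes with counts that were not tested. A line left with 1 library was assumed to vary like the others.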

Other observations

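Protein-coding genes within 200 kb of the 17 called receptor genes were called about as often as genes in general. Of 94 tested neighbours that are not receptor genes themselves, 23 passed over both media (24.5%, against 24.8% of all genes). Of these, 20 changed in the direction of the receptor gene, for which no share over all genes was computed. Most called receptor genes rose (12 of 17), and so did more of all genes (15.0% higher, 9.78% lower). Neighbours of the same receptor gene are also not separate cases. Beside GABRA3 lies MAGEA10, a cancer-testis antigen gene, which was at 0.145 ± 0.0531 CPM in wild type (SD, n = 6). It was at 28.8 and 57.8 CPM in line 1 (heavy, then light), at 34.2 and 37.7 CPM in line 2 and at 0.402 and 0.320 CPM in line 3 (log2 8.14, 7.94 and 1.24 against wild type; edgeR adjusted p = 1.1e-13, 1.2e-13 and 0.2). Like GABRA3 and GABRQ, it was thus high in lines 1 and 2 and low in line 3. MAGEA3, MAGEA6 and CSAG3, near GABRQ, changed less (log2 0.41, 0.67 and 0.60 over both media). MAGEA3 stood at log2 0.78, 0.05 and 0.31 in lines 1, 2 and 3, and did not pass in line 2. In the same order MAGEA6 stood at 1.17, 0.60 and 0.04 and CSAG3 at 1.10, 0.38 and 0.14. MAGEA6 did not pass in line 3, nor CSAG3 in lines 2 and 3. CSAG1, MAGEA12, MAGEA2 and CETN2, also near GABRQ, were tested over both media and did not pass. MAGEA3 and MAGEA6 are near-identical in sequence, so their split is uncertain.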
